A study of Mus musculus with 12 samples.

Results

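Voltage-gated calcium channels open when the membrane depolarises and let calcium into the cell. Each channel is built around 1 large alpha-1 protein that forms the pore and senses voltage, and the 8 genes described here, *Cacna1a*, *Cacna1b*, *Cacna1c*, *Cacna1d*, *Cacna1e*, *Cacna1g*, *Cacna1h* and *Cacna1i*, encode the alpha-1 proteins of the L, P/Q, N, R and T type channels. They were chosen by name from a table of 55397 genes, and all 8 passed the low-count filter, which left 18264 genes. RNA was sequenced from primary cultures prepared from newborn (P0) mouse pups and grown to day in vitro 11. The cultures came from 3 *Myt1l* (+/-) pups, numbered 505, 506 and 508, and 3 (+/+) pups, numbered 510, 511 and 513. The (+/-) pups carried a CRISPR/Cas9-made 7 bp frameshift deletion in exon 6 of 1 copy of *Myt1l*, a gene for a neuronal zinc finger transcription factor, and (+/+) pups carried no deletion. All cultures received Ara-C, which kills dividing cells, 3 days after plating. The labels give cortex, C57BL/6J mice and male sex for every animal, whereas the methods of the study describe hippocampus or cortex cultures and C57BL/6N mice.

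The channel classes differ in how they are used by neurons. L type channels (*Cacna1c*, *Cacna1d*) sit mainly on cell bodies and dendrites and couple calcium entry to gene transcription, and *Cacna1d* channels open at less depolarised voltages than *Cacna1c* channels. P/Q (*Cacna1a*), N (*Cacna1b*) and R type (*Cacna1e*) channels supply the calcium that triggers transmitter release at presynaptic terminals, with R type channels also found on dendrites. T type channels (*Cacna1g*, *Cacna1h*, *Cacna1i*) open near the resting potential, carry small transient currents, and are known for burst firing and rhythmic activity of thalamic and cortical neurons. Channels of the L, P/Q, N and R types mostly need strong depolarisation, *Cacna1d* channels less so. All of these types assemble with beta and alpha2delta subunits, which T type channels do not require.

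The division into T type and high-voltage-activated genes can be read in the coding sequence. An alpha-1 protein has 4 repeats, and each repeat gives 1 acidic residue to the ring in the pore that selects calcium. In the mouse transcripts of GENCODE M21 (mm10), this residue was glutamate in repeats I and II of all 8 genes. In repeats III and IV it was glutamate (GAA or GAG) in the 5 high-voltage-activated genes and aspartate (GAT or GAC) in the 3 T type genes. The lines of repeat III show 33 bases each of the spliced transcript, 5′ to 3′ on the coding strand. The codon of that residue, which lies within a single exon, is in capitals, with its own position and number in brackets. The lines are shown because in these same 3 genes every (+/-) animal lay below every (+/+) animal. In the other 5 genes the genotypes overlapped. Whether the fold changes of the 3 genes differed from those of the other 5 was not tested.
Cacna1c repeat III (chr6:118656124-118656126, minus strand, codon 1140): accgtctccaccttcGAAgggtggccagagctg
Cacna1d repeat III (chr14:30100708-30100710, minus strand, codon 1121): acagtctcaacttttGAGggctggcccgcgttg
Cacna1a repeat III (chr8:84581338-84581340, plus strand, codon 1411): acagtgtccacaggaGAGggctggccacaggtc
Cacna1b repeat III (chr2:24651092-24651094, minus strand, codon 1359): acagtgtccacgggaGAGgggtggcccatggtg
Cacna1e repeat III (chr1:154444883-154444885, minus strand, codon 1375): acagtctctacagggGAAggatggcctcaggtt
Cacna1g repeat III (chr11:94426471-94426473, minus strand, codon 1487): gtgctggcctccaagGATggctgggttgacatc
Cacna1h repeat III (chr17:25383508-25383510, minus strand, codon 1515): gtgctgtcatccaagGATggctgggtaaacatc
Cacna1i repeat III (chr15:80376807-80376809, plus strand, codon 1339): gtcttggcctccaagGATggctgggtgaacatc

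The lines of repeat IV are written in the same way.
Cacna1c repeat IV (chr6:118614062-118614064, minus strand, codon 1499): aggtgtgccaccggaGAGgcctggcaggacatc
Cacna1d repeat IV (chr14:30075956-30075958, minus strand, codon 1426): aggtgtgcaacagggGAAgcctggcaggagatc
Cacna1a repeat IV (chr8:84611611-84611613, plus strand, codon 1707): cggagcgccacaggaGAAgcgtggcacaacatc
Cacna1b repeat IV (chr2:24635225-24635227, minus strand, codon 1647): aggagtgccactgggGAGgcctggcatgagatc
Cacna1e repeat IV (chr1:154425987-154425989, minus strand, codon 1666): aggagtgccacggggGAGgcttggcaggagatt
Cacna1g repeat IV (chr11:94416427-94416429, minus strand, codon 1803): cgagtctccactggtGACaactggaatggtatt
Cacna1h repeat IV (chr17:25377783-25377785, minus strand, codon 1813): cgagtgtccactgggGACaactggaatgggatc
Cacna1i repeat IV (chr15:80388497-80388499, plus strand, codon 1637): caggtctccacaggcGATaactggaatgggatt

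Totals per animal were 40642699 to 52833161 counts over its 2 libraries, and the 8 genes together had 18055 to 34887 counts per animal. Levels are given as CPM, the counts scaled to a common library size with TMM factors. The (+/+) animal 511, labelled male, had 18805 *Xist* counts and 376 counts from the Y chromosome, where the other 5 animals had 5 to 10 and 5174 to 7236. *Myt1l* counts cannot check the genotype labels, because the labels state that the mutant transcript is not degraded. Over 48 comparisons of both libraries of an animal, 1 per gene and animal, the median difference was 2.7% of their mean and the largest 18.6%, for *Cacna1h* in animal 506. The counts of the 8 genes differed between the libraries by a chi-square of 7.45 to 8.19 on 8 degrees of freedom in animals 508, 510 and 511, which is sampling noise, and by 20.6, 30.3 and 18.2 in animals 505, 506 and 513, which is more. Their counts were added, so that each animal was 1 replicate and each genotype had 3.

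T type genes were lower in every (+/-) culture than in any (+/+) culture, at 55.0% to 67.3% of the (+/+) mean, while in the other 5 genes the genotypes overlapped. No gene of the 8 passed the quasi-likelihood test of edgeR at an adjusted p under 0.1, and neither did any other gene: 0% of the 18264 genes tested were called lower and 0% higher. At an unadjusted p under 0.05, 3 of the 8 genes, the T type genes, were lower, against 9.11% of all genes. Their unadjusted p from edgeR was 0.00159 for *Cacna1g*, 0.00250 for *Cacna1h* and 0.00302 for *Cacna1i*. After adjustment all 3 had 0.166, the smallest value of any gene tested with edgeR, which genes with a smaller unadjusted p shared. In 3 of 8 genes every (+/-) animal lay below every (+/+) animal, against 13.5% of all genes, and in 0 of 8 above, against 15.5%. The log2 fold change was negative in 7 of the 8 genes, against 49.6% of all genes tested. Its median over the 8 genes was −0.41, against 0.003 over all genes tested. It was −0.18 without animal 505 and −0.63 without animal 508. In a bulk culture, fewer cells of a type and less RNA per cell cannot be told apart.

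**Figure D1:**
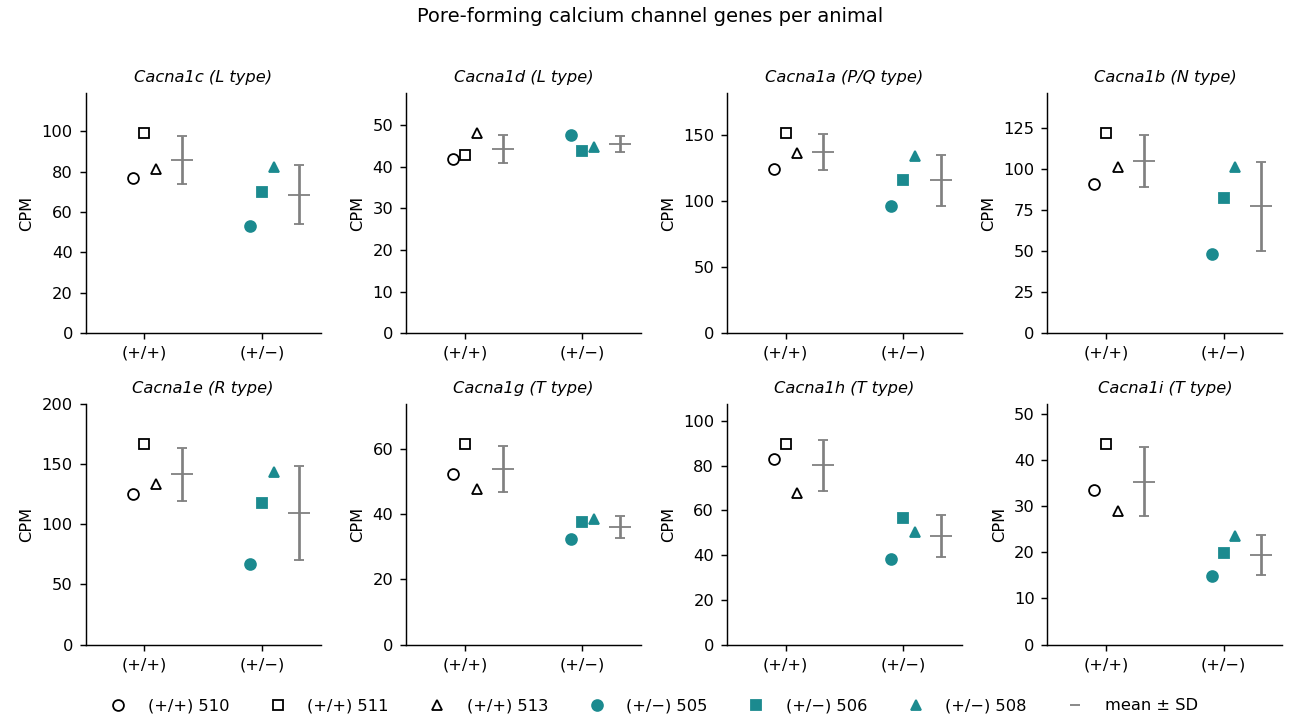
CPM (vertical axis) of the 8 genes in each of the 3 (+/+) animals (open symbols) and 3 (+/-) animals (filled symbols), with the mean ± SD of each genotype as grey bars. In *Cacna1g*, *Cacna1h* and *Cacna1i* all 3 filled symbols lie below all 3 open symbols, and in the other 5 panels they overlap.

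*Cacna1g* (chr11:94408391-94474198, minus strand, mm10) encodes the T type protein known from thalamic relay neurons and many other neurons. It was at 32.3, 37.5 and 38.6 CPM in (+/-) animals 505, 506 and 508 and at 52.1, 61.4 and 47.6 CPM in (+/+) animals 510, 511 and 513. The (+/-) animals lay close together, and the gap to the lowest (+/+) animal was wider than their whole range. The means were 36.1 ± 3.35 and 53.7 ± 7.05 CPM (SD, n = 3 each). The log2 fold change was −0.57 (standard error 0.12, 95% interval −0.85 to −0.29, adjusted p = 0.166 from edgeR).

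*Cacna1h* (chr17:25374285-25433783, minus strand) encodes the T type protein known for its sensitivity to nickel and for its part in sensory neurons. It was at 38.3, 56.8 and 50.5 CPM in animals 505, 506 and 508, against 83.1, 89.6 and 67.6 CPM in animals 510, 511 and 513. All 3 (+/-) values were below the lowest (+/+) value, that of animal 513. The means were 48.5 ± 9.39 and 80.1 ± 11.3 CPM (SD, n = 3 each), at a log2 fold change of −0.72 (standard error 0.164, interval −1.11 to −0.34, adjusted p = 0.166 from edgeR).

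*Cacna1i* (chr15:80287238-80398279, plus strand) encodes the T type protein with the slowest kinetics, known from the thalamic reticular nucleus. It was at 14.8, 19.8 and 23.6 CPM in animals 505, 506 and 508, and at 33.6, 43.4 and 28.9 CPM in animals 510, 511 and 513. The groups did not overlap, with animal 508 nearest to the (+/+) animals and animal 513 nearest to the (+/-) animals. The means were 19.4 ± 4.40 and 35.3 ± 7.42 CPM (SD, n = 3 each). Its log2 fold change of −0.86 was the most negative of the 8 (standard error 0.203, interval −1.33 to −0.39, adjusted p = 0.166 from edgeR).

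For each T type gene an exact two-sided permutation test over the animals gave p = 0.1, the smallest value that 3 animals against 3 allow. Every gene without overlap has this value, so it restates the separation already given. The same permutation test gave p = 0.2 to 0.6 for the other 5 genes. The call by a model depended on the tool and on 1 animal. DESeq2 on the same 6 animals called all 3 T type genes lower (adjusted p = 0.00613 for *Cacna1g* and 0.00648 for both *Cacna1h* and *Cacna1i*), none of the other 5, and 4.3% of all genes. Without (+/+) animal 513, edgeR also called these 3 genes lower, with adjusted p = 0.0317 for *Cacna1g*, 0.0380 for *Cacna1h* and 0.0415 for *Cacna1i*, and 5.95% of all genes. Without animal 511 the log2 fold changes of *Cacna1g*, *Cacna1h* and *Cacna1i* were −0.47, −0.64 and −0.69 (adjusted p = 0.485 from edgeR for each). Animal 511 was the only one taken as female, so genetic sex as a covariate was not a check separate from leaving it out. With that covariate, edgeR gave −0.46, −0.64 and −0.69 (adjusted p = 0.490 from edgeR for each). DESeq2 with the covariate gave adjusted p = 0.120 to 0.124 for the 3 genes and called none of the 8, and 0.192% of all genes lower.

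*Cacna1c* (chr6:118587240-119196890, minus strand) encodes the main L type protein of brain and heart. It was at 53.3, 70.0 and 82.3 CPM in animals 505, 506 and 508 and at 76.9, 99.1 and 81.5 CPM in animals 510, 511 and 513. Animal 508 lay inside the (+/+) range, and 505 and 506 below it. The means were 68.5 ± 14.6 and 85.9 ± 11.7 CPM (SD, n = 3 each). This gave a log2 fold change of −0.33 (standard error 0.17, interval −0.72 to 0.07, adjusted p = 0.274 from edgeR).

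*Cacna1d* (chr14:30039939-30491455, minus strand) encodes the L type protein known for pacemaking and for hearing. It was at 47.6, 43.9 and 44.9 CPM in animals 505, 506 and 508 and at 41.8, 43.0 and 48.1 CPM in animals 510, 511 and 513. The 6 values were mixed, with both the lowest and the highest in (+/+) animals. Its log2 fold change was 0.04 (standard error 0.088, interval −0.17 to 0.24, adjusted p = 0.804 from edgeR). *Cacna1c* overlaps *Dcp1b* on the opposite strand, and *Cacna1d* overlaps *Chdh* and *Dcp1a*. No source used here says whether the counting took the strand into account, so reads in those overlaps are uncertain. Over all animals *Dcp1b* had 2617 counts against 20601 of *Cacna1c*, and *Chdh* and *Dcp1a* had 966 and 4416 against 11966 of *Cacna1d*.

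*Cacna1a* (chr8:84338639-84640246, plus strand), the P/Q type gene, is required for fast release at most central synapses. It was at 96.1, 116 and 134 CPM in animals 505, 506 and 508, and at 124, 151 and 136 CPM in animals 510, 511 and 513. Animal 508 lay between the (+/+) animals. The log2 fold change was −0.25 (standard error 0.139, interval −0.57 to 0.07, adjusted p = 0.297 from edgeR).

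*Cacna1b* (chr2:24603887-24763152, minus strand), the N type gene, encodes the target of omega-conotoxin GVIA. It was at 48.1, 82.5 and 102 CPM in animals 505, 506 and 508, against 90.9, 122 and 102 CPM in animals 510, 511 and 513. Animal 505 was far below the other 5 animals, and 508 was level with 513. Its log2 fold change was −0.44 (standard error 0.253, interval −1.03 to 0.15, adjusted p = 0.309 from edgeR).

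*Cacna1e* (chr1:154390731-154884501, minus strand), the R type gene, was at 67.3, 117 and 144 CPM in animals 505, 506 and 508. In animals 510, 511 and 513 it was at 125, 167 and 134 CPM. Animal 508 was above 2 of the 3 (+/+) animals, while 505 was the lowest of all 6. The log2 fold change was −0.37 (standard error 0.258, interval −0.97 to 0.23, adjusted p = 0.381 from edgeR). These intervals do not show that the 5 genes were alike in both genotypes, since 4 of them reach log2 fold changes of −0.57 to −1.03.

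**Figure D2:**
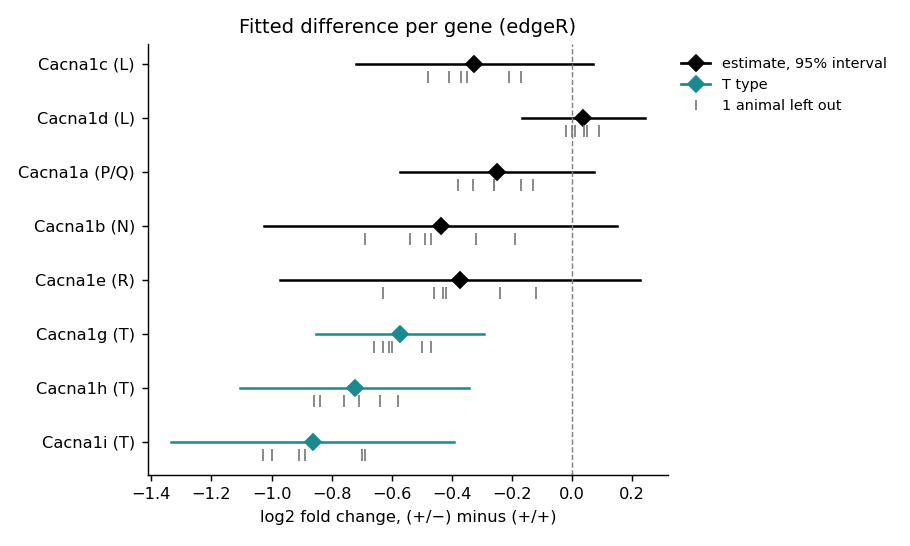
Fitted log2 fold change, (+/-) minus (+/+), for each gene (horizontal axis), with its 95% interval from edgeR and, as grey ticks, the 6 estimates with 1 animal left out. The intervals of the 3 T type genes lie below 0 and those of the other 5 include 0, and the ticks of *Cacna1d* lie between −0.02 and 0.09.

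Leaving out 1 animal moved *Cacna1a*, *Cacna1b*, *Cacna1c* and *Cacna1e* more, relative to their values, than the T type genes. Without animal 505 their log2 fold changes, in this order, were −0.13, −0.19, −0.17 and −0.12, and without animal 508 they were −0.38, −0.69, −0.48 and −0.63. Over all 6 omissions *Cacna1g* stayed between −0.66 and −0.47, *Cacna1h* between −0.86 and −0.58 and *Cacna1i* between −1.03 and −0.69.

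The 3 (+/-) animals differed among themselves in how far the genes lay from the (+/+) mean. The median log2 distance over the 8 genes was −0.89 in animal 505, −0.31 in 506 and −0.04 in 508, and −0.11 to 0.21 in the (+/+) animals. In animal 508 the 5 high-voltage-activated genes were within −0.05 to 0.03 of the (+/+) mean, while *Cacna1g*, *Cacna1h* and *Cacna1i* were at −0.47, −0.66 and −0.56. In animal 505 *Cacna1b* and *Cacna1e* were as low as the T type genes, at −1.11 and −1.06 against −0.72 for *Cacna1g*, −1.05 for *Cacna1h* and −1.23 for *Cacna1i*. *Cacna1d* was at 0.11 in that animal. Low values of the P/Q, N and R type genes were thus mainly those of animal 505, and those of the T type genes were shared by all 3 (+/-) animals.

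Markers of neurons lay lower in the same animals. The 12 pan-neuronal markers, among them *Tubb3*, *Map2* and *Snap25*, had negative log2 fold changes in 12 of 12 genes, with a median of −0.45. Of all genes tested, 49.6% were negative. In 4 of the 12 markers every (+/-) animal lay below every (+/+) animal, against 13.5% of all genes. The summed level of the 12 was 2902, 5013 and 5496 CPM in animals 505, 506 and 508 and 5546 to 6350 CPM in (+/+) animals, which puts animal 505 lowest, as for most of the channel genes. Excitatory neuron markers (7 of 7 negative) summed to 1426 to 2516 against 2623 to 2894 CPM, and inhibitory neuron markers (6 of 7 negative) to 124 to 260 against 265 to 314 CPM. The part of the neuronal share in the channel values cannot be read from these sums alone, so each gene was also set against the pan-neuronal markers.

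Relative to the mean of the 12 pan-neuronal markers on the log2 scale, *Cacna1i* was the 1 gene of the 8 in which every (+/-) animal stayed below every (+/+) animal, against 0.734% of all genes. It was at −0.18, −0.55 and −0.45 in animals 505, 506 and 508 and at −0.17 to 0.20 in (+/+) animals, so animal 505 was barely below the lowest (+/+) animal. *Cacna1h* was at −0.01, −0.22 and −0.54 and *Cacna1g* at 0.32, −0.24 and −0.36. In both, animals 506 and 508 were below every (+/+) animal and 505 was not. *Cacna1d* was at 1.15, 0.26 and 0.13, the highest of the 8 in animals 505 and 506. No gene of the 8 lay above in every (+/-) animal, against 34.9% of all genes. On this scale the median of all genes moved to a log2 fold change of 0.533, and the fitted values of *Cacna1g*, *Cacna1h* and *Cacna1i* were −0.06, −0.24 and −0.39 (adjusted p = 0.872, 0.484 and 0.317 from edgeR). The fitted *Cacna1g* value, with a standard error of 0.281, lay between 0.32 in animal 505 and −0.24 and −0.36 in animals 506 and 508. The part of neuronal content in it was not tested.

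**Figure D3:**
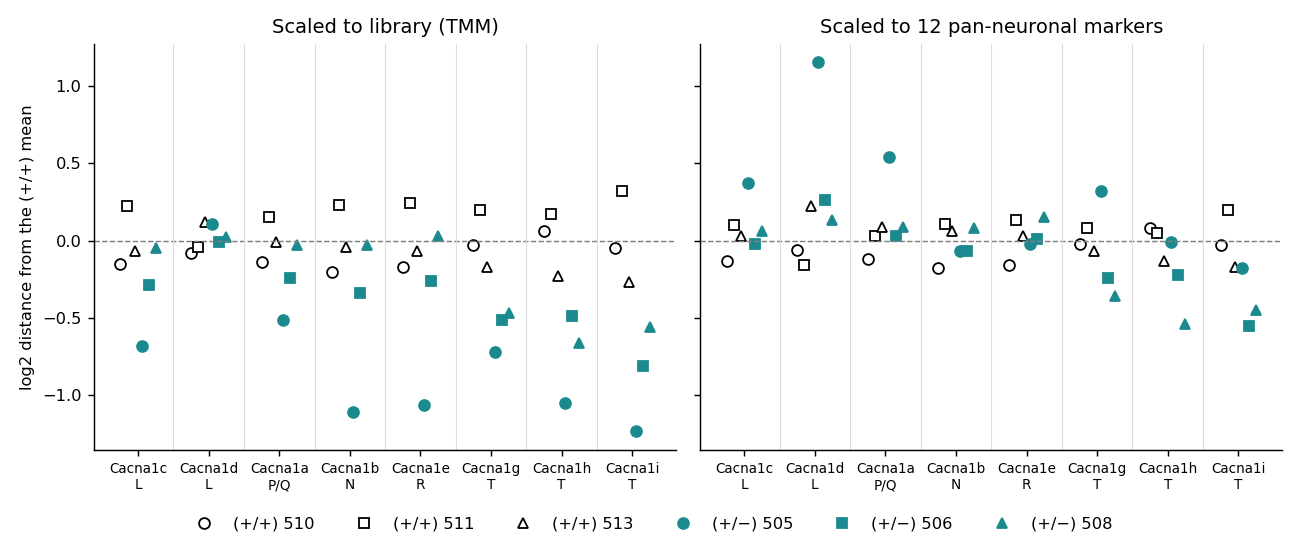
Log2 distance of each animal from the mean of the (+/+) animals (vertical axis) for each gene (horizontal axis, with channel type), scaled to the library (left) or to 12 pan-neuronal markers (right). On the left the triangle of (+/-) animal 508 lies near 0 for 5 genes and at −0.47 to −0.66 for the T type genes, and on the right the filled circle of animal 505 reaches 1.15 for *Cacna1d*.

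Other cell types also differed between the cultures, and their part in the channel values was not tested. In each list that follows no marker was at 0 in all animals. Ependymal markers had 7 of 7 genes with every (+/-) animal above every (+/+) animal, against 15.5% of all genes. The ependymal markers summed to 898 to 1045 against 496 to 718 CPM. Choroid plexus markers (6 of 7 positive) summed to 391 to 1538 against 86.4 to 270 CPM, and microglia markers (8 of 8 positive) to 115 to 219 against 84.9 to 112 CPM. Astrocyte markers (7 of 8 positive) summed to 10200 to 11110 against 6716 to 10940 CPM, where (+/+) animal 513 was the one inside the (+/-) range. Fibroblast markers (6 of 6 positive) summed to 412 to 1559 against 188 to 831 CPM, oligodendrocyte lineage markers (4 of 6 tested positive, *Sox10* and *Mog* below the filter) to 105 to 128 against 84.6 to 108 CPM, endothelial and mural markers (6 of 7 tested positive, *Cldn5* below the filter) to 386 to 607 against 343 to 426 CPM, and smooth and cardiac muscle markers (4 of 4 tested positive, with *Myh6*, *Tnnt2* and *Actc1* below the filter) to 267 to 477 against 249 to 352 CPM. Transcription factors of cortex and hippocampus were present in every culture, at 560 to 639 against 491 to 630 CPM in sum (6 of 7 negative). None of these markers was called by edgeR, which called no gene of the whole table.

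The share of the T type genes in the channel pool was lower in the (+/-) cultures, and that of the L type genes was higher. The 8 genes summed to 398, 543 and 620 CPM in animals 505, 506 and 508 and to 627, 776 and 645 CPM in animals 510, 511 and 513. The T type genes took 29.2%, 28.8% and 25.3% of the summed CPM per kilobase of exon in the (+/-) animals and 35.9%, 33.8% and 30.3% in the (+/+) animals. The L type genes took 18.9%, 15.2% and 15.0% against 13.2%, 12.7% and 14.4%. The summed L type level itself was not higher, at 5.57 to 6.72 against 6.27 to 7.36 CPM per kilobase, with overlap. The genotypes did not overlap for either share, with animals 505 and 513 closest for the T type share. P/Q, N and R type genes took 51.9% to 59.7% against 50.9% to 55.3%, with overlap. By coding length the T type share was 21.1%, 20.7% and 17.9% against 26.6%, 24.7% and 22.0%, again without overlap. These shares restate levels already given, and no test was made of them.

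**Figure D4:**
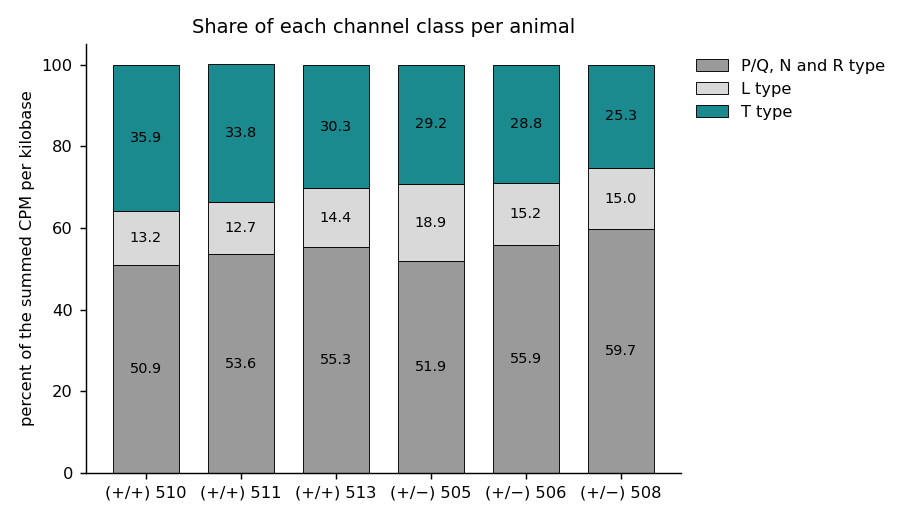
Share of each channel class in the summed CPM per kilobase of exon of the 8 genes (vertical axis, percent) for each animal (horizontal axis). T type genes take 30.3% to 35.9% in the (+/+) animals and 25.3% to 29.2% in the (+/-) animals.

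Levels were compared between genes only per kilobase. Per kilobase of exon, the (+/+) cultures were led by *Cacna1a* at 11.1 ± 1.10 and *Cacna1b* at 10.6 ± 1.60 CPM per kilobase, followed by *Cacna1h* at 8.21 ± 1.16 (SD, n = 3 each). *Cacna1e* at 5.62 ± 0.873, *Cacna1g* at 5.30 ± 0.695, *Cacna1c* at 3.93 ± 0.537, *Cacna1i* at 3.58 ± 0.753 and *Cacna1d* at 2.92 ± 0.221 CPM per kilobase came next. Of the 7 pairs of neighbours in this order, the ranges over (+/+) animals were separate for *Cacna1h* above *Cacna1e* and for *Cacna1g* above *Cacna1c*, and the ranges of the other 5 pairs overlapped. Within each of the 3 (+/+) animals, *Cacna1b* was still above *Cacna1h* and *Cacna1c* above *Cacna1i*. In the (+/-) cultures the order was the same but for the last place, where *Cacna1i* at 1.97 ± 0.446 was below *Cacna1d* at 2.99 ± 0.127 CPM per kilobase.

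The order depended on the length used, since exon lengths ran from 9.763 kilobases for *Cacna1h* to 25.228 for *Cacna1e* and coding lengths only from 6.537 to 7.143. Per kilobase of coding sequence *Cacna1e* came first in (+/+) cultures at 20.8 ± 3.23, followed by *Cacna1a* at 19.3 ± 1.91, *Cacna1b* at 15.0 ± 2.27, *Cacna1c* at 12.9 ± 1.76 and *Cacna1h* at 11.3 ± 1.60 CPM per kilobase. *Cacna1g* at 7.52 ± 0.987, *Cacna1d* at 6.78 ± 0.514 and *Cacna1i* at 5.35 ± 1.13 CPM per kilobase were lowest. Here 1 pair of neighbours, *Cacna1h* and *Cacna1g*, had separate ranges. On this scale the high-voltage-activated genes other than *Cacna1d* were the 4 highest, and *Cacna1i* was last in both genotypes.

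**Figure D5:**
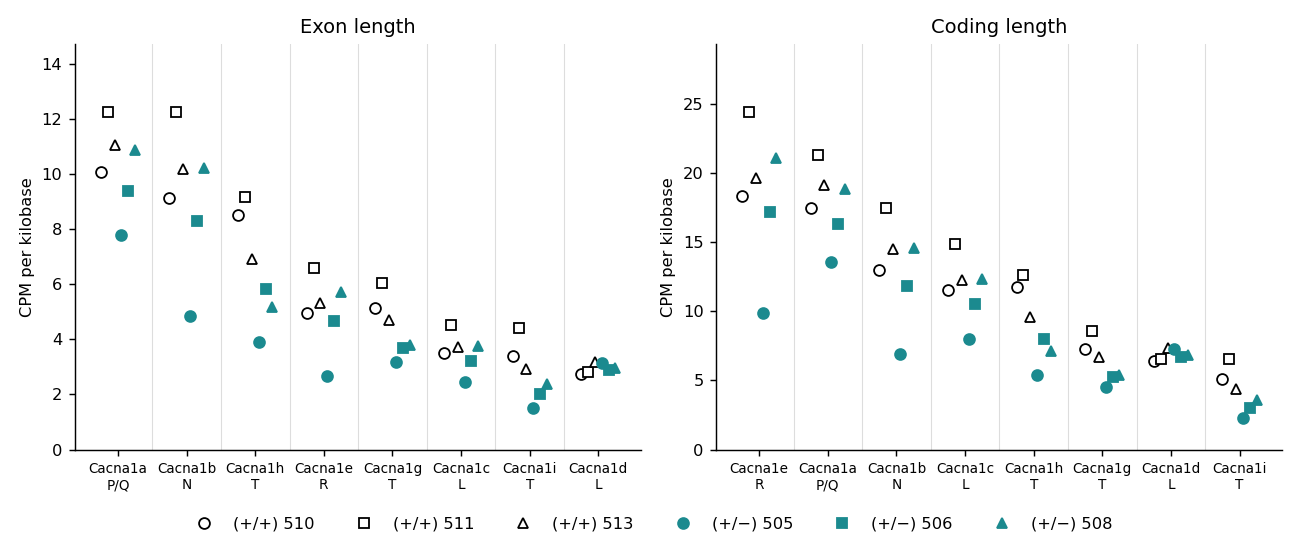
CPM per kilobase (vertical axis) of the 8 genes in each animal, by exon length (left) and by coding length (right), ordered by the (+/+) mean on each side. *Cacna1e* is first by coding length but not by exon length, and *Cacna1i* and *Cacna1d* have the lowest (+/+) means in both.

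Across the 6 animals the T type genes varied together, as did *Cacna1c* with the P/Q, N and R type genes, and *Cacna1d* varied apart from both. Pearson's r of log2 CPM, given as a description over 6 animals that share genotype and culture make-up, was 0.97 to 1 among *Cacna1a*, *Cacna1b*, *Cacna1c* and *Cacna1e* and 0.96 to 0.99 among the 3 T type genes. Between the 4 genes and the T type genes r was 0.76 to 0.91. *Cacna1d* had an r of −0.35 to −0.63 with the other 7. The genes outside the family whose log2 CPM was most like the mean of the 8 were *Nup133*, a nuclear pore gene (r = 0.9994), *Miga2*, a mitochondrial fusion gene (0.9985), *Apc2* (0.9973), *Ube2v2* (0.9972) and *Lmtk3* (0.997), each over 6 animals. Such likeness was common, as 2297 genes, 12.6% of those tested, had an r over 0.9 with that mean.

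Genes for the auxiliary subunits had mostly smaller negative values than the T type genes. The beta subunits, which carry high-voltage-activated channels to the membrane, were negative in 4 of 4 genes with a median log2 fold change of −0.21. Of all genes tested, 49.6% were negative. In 1 of the 4, *Cacnb1*, every (+/-) animal lay below every (+/+) animal (73.0 against 102 CPM on average, log2 fold change −0.48), against 13.5% of all genes. *Cacnb2* and *Cacnb3* were at −0.23 and −0.19. Of the alpha2delta subunits, which raise surface expression and of which some bind gabapentin, 2 of 4 were negative with a median of −0.12, from *Cacna2d1* at −0.47 and *Cacna2d3* at −0.27 to *Cacna2d2* at 0.15, all with overlap. The gamma family, several of which regulate AMPA receptors, was negative in 7 of 7 tested genes with a median of −0.31 (*Cacng1* was below the filter). In 3 of the 7 every (+/-) animal lay below every (+/+) animal, against 13.5% of all genes. Among these were *Cacng3* at −0.66 and *Cacng2* at −0.55. *Cacng4*, at −0.31, overlapped between genotypes. The remaining alpha-1 genes were near the detection limit. *Cacna1s*, of skeletal muscle, was at 0.681 against 0.501 CPM, and *Cacna1f*, of the retina, was below the filter.

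Among 13 tested regulators of the channels, 10 were negative, with a median of −0.17 (*Cabp4* was below the filter). *Stac2*, an adaptor that slows inactivation of L type channels, was at 49.9 against 80.5 CPM (log2 fold change −0.69, standard error 0.142), and all (+/-) animals lay below all (+/+) animals. That was so in 3 of the 13 regulators, against 13.5% of all genes. *Rem2*, a small GTPase that inhibits high-voltage-activated channels, was at −0.69 and its relative *Rem1* at 0.99, the latter at 0.374 against 0.190 CPM, both with overlap. Presynaptic partners of P/Q and N type channels were negative in 15 of 15 genes, against 49.6% of all genes, with a median of −0.43. In 10 of the 15 every (+/-) animal lay below every (+/+) animal, against 13.5% of all genes. Among the partners were the scaffold gene *Bsn* at −0.54 and *Rims1*, which tethers the channels at the active zone, at −0.43. The list shares *Snap25* and *Syt1* with the pan-neuronal markers. Those markers were negative in 12 of 12 genes with a median of −0.45, and in 4 of the 12 every (+/-) animal lay below. None of these genes passed edgeR's test, and no other gene did.

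Genes that release, remove or read calcium inside the cell had more mixed values. Of 11 genes for release and store-operated entry, 6 were negative, against 49.6% of all genes, with a median of −0.02. *Orai3*, a plasma membrane channel opened by store depletion, was at 0.40 with every (+/-) animal above. The ryanodine receptor genes *Ryr1* and *Ryr2* were at −0.69 and −0.45 with every (+/-) animal below. In the list of 11, 2 genes lay below in this way, against 13.5% of all genes, and 1 above, against 15.5%. Of 11 genes for extrusion and uptake, 10 were negative with a median of −0.29. *Slc24a2* and *Slc8a3*, both sodium-calcium exchangers, were at −0.59 and −0.36, and the calcium pump gene *Atp2a3* was at 0.89 with overlap. Every (+/-) animal lay below every (+/+) animal in 3 of these 11 genes, against 13.5% of all genes, and above in 0. Of 16 genes for signalling to the nucleus, 10 were negative with a median of −0.11. *Mef2c*, an activity-dependent transcription factor, was at 81.4 against 143 CPM (−0.81), the kinase gene *Camk2d* at −0.34 and the immediate early gene *Fos* at 282 against 216 CPM (0.39), each without overlap. Of the 16, 4 had every (+/-) animal below, against 13.5% of all genes, and 1 had every (+/-) animal above, against 15.5%. edgeR called none of these genes, as it called none at all.

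Promoter windows of RefSeq (GRCm38.p6, 300 bases around a start site) were at hand for 5 of the 8 genes, in 8 windows. The core motif AAAGTT, to which MYT1 family zinc fingers bind, was searched on both strands. It was in 1 of the 8 windows, that of *Cacna1d* at chr14:30491107-30491406 on the minus strand, and in 14.1% of 32851 windows of all genes. *Cacna1i* was the 1 T type gene with a window, and these letters were not in it.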

How the data were processed

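Libraries were made with dUTP strand marking and sequenced as 100 bp paired-end reads, by the study's methods. The authors deposited a table of raw counts, 1 column per library, after alignment to mm10 with STAR according to their processing notes. The counting tool was not given in these sources. Deposited size-factor-normalised counts and a table of the authors' own fold changes and p-values were not used.

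Counts of the 2 libraries of each animal were summed. Genes were filtered by genotype with filterByExpr, scaled by TMM and compared with the quasi-likelihood test of edgeR 4.0.16 in R 4.3.3, without covariates, with Benjamini-Hochberg adjustment over 18264 genes and a threshold of 0.1 on the adjusted p, as in the paper. This differs from the methods of the study, which used DESeq2 with genetic sex. DESeq2 1.42.0, limma 3.58.1 (voom, also on 12 libraries with the animal as a random effect), other filters, thresholds, libraries and each animal left out were tried as alternatives. The test was run on simulated counts with known changes before use. Single genes were also compared by exact two-sided permutation tests over animals.

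CPM was divided by the exon length in the deposited table, or by the longest coding sequence in GENCODE M21, for levels between genes. Pore codons were found by conserved protein patterns in the translated transcripts. All 8 genes are named, with up to 3 genes of smallest p in each calcium list and the 5 genes most correlated with their mean. A gene that this rule names is not reported here. Of the marker lists only sums and counts are given, with a few well-known members as examples. The members and lists were chosen with earlier results of these data known. Nothing says that animals came from separate litters or days, so p-values measure the spread between these 6 animals.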

Additional observations from a re-analysis of the deposited data

How the results depend on the processing

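Over 160 re-estimates of single genes (8 genes, 20 alternatives), 136 kept direction and side of the threshold, 20 became called and 4 changed sign. The edgeR count of 0 genes called lower was 3 with DESeq2 and 3 without a low-count filter (1.4% of all genes called lower), in both the T type genes, and 0 to 3 with 1 animal left out, reaching 3 without (+/+) animal 513. It was 6 when all 12 libraries entered limma voom with the animal as a random effect (11.6% of all genes), and 5 when the library number was added as a replicate block (10.4%). Libraries of an animal are not independent replicates. In the fit with 6 calls, the standard errors of *Cacna1a*, *Cacna1b* and *Cacna1c*, called beside the T type genes, were 0.099, 0.176 and 0.124. With voom on 6 animals they were 0.141, 0.263 and 0.172. Library numbers did not pair the animals (r of −0.02 to 0.01 over 15 pairs of animals). The other alternatives, which were DESeq2 size factors, voom on 6 animals, a newer edgeR fit, a filter of 1 CPM, a threshold of 0.05, either library alone and genetic sex in edgeR or DESeq2, called 0 of the 8 genes. The threshold of 0.05 reused the main fit, in which no gene was under 0.1, so its values were among the 136 by construction. The median log2 fold change of −0.41 ran from −0.63 to −0.18 with 1 animal left out. Scaling to the 12 pan-neuronal markers, added after the data were seen, moved it to 0.01 and turned *Cacna1a* to 0.23, *Cacna1c* to 0.14 and *Cacna1e* to 0.04, while all genes moved by 0.53. *Cacna1d* was at 0.58 on that scale, and ran from −0.02 (without animal 510) to 0.09 (without animal 513) with 1 animal left out. Levels per kilobase moved beyond the spread for all 8 genes with coding in place of exon length. The smallest count of any of the 8 genes in an animal was 673 (*Cacna1i* in 505).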
